A study of Mus musculus with 3 samples.

Results

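The messenger RNAs of 10 nucleolar ribosome biogenesis factors were followed by their cytosines: Fbl, Nop56, Nop58, Dkc1, Nop10, Nhp2, Gar1, Npm1, Ncl and Nolc1. Members were taken by gene symbol, through the RefSeq accession without its version, from 13224 genes in all. Of the 10 genes, 9 had listed cytosines, 3718 of 4450412 over the 3 libraries together. The libraries were 3 samples of 1 group of mouse embryonic stem cells on a J1 background with the genotype Tet1-/-,Tet2-/-,Tet3-/-, grown on embryonic fibroblast feeders with LIF. All 3 carry the same triple knockout, no wild-type sample was analysed here, and the labels do not say whether they are separate cultures or 1 clone. The spread between them may therefore be technical.

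Ribosomes are assembled in the nucleolus, where precursor ribosomal RNA is cut, folded and chemically modified. Small nucleolar RNPs guide the modification. Box C/D particles carry the ribose methyltransferase fibrillarin (Fbl) on a scaffold of Nop56 and Nop58, and box H/ACA particles carry the pseudouridine synthase dyskerin (Dkc1) with Nop10, Nhp2 and Gar1. Dyskerin and its partners also bind telomerase RNA, and mutations of DKC1, NOP10 and NHP2 cause dyskeratosis congenita in humans. Nolc1 is a chaperone of these particles, while nucleophosmin (Npm1) and nucleolin (Ncl) are abundant nucleolar proteins that act in ribosome assembly. Such rapidly dividing cells depend on high output from this machinery.

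The assay was bisulfite sequencing of polyadenylated RNA. Bisulfite converts plain cytosine so that it is read as thymine, while 5-methylcytosine stays cytosine, and the unconverted share is the percentage of reads that kept a cytosine. A cytosine that escaped the reagent is counted in the same way. Over whole libraries the share was 1.53%, 1.45% and 1.41% in replicates 1, 2 and 3, from a summed coverage of 139884444 to 151362866. Embryonic stem cell markers were listed for 10 of 10 genes and took 0.502% to 0.530% of the coverage. Fibroblast markers were listed for 5 of 8 genes and took 0.0242% to 0.0401%, with Dcn, Lum and Postn without a listed cytosine, and their part in the results below was not tested. In such bulk RNA, fewer cells of a type and less RNA per cell cannot be told apart.

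The reference sequence of the first 50 transcribed bases let the positions be checked, and 4 stretches are shown for this reason. In RefSeq's promoter table (GRCm38.p6), 8 of the 10 genes had an entry, and 6 of these had listed cytosines in the first 50 bases. All 71 listed positions of these 6 fell on a cytosine of the reference when counted from 1 at the RefSeq start, out of 81 cytosines there. Across 4134 genes with a single listed transcript and a single start the agreement was 81.5%. Each line gives 30 bases, 5′ to 3′ on the strand of the gene, with the cytosines that the libraries listed in capitals.
Nop56, bases 1 to 30, chr2:130274412-130274441, plus strand: agtCtggttCCgCgCgCCagagCgCgCtag
Nhp2, bases 1 to 30, chr11:51619773-51619802, plus strand: ggCCgCgtggttCCtCtatgCCgggaCgga
Nop58, bases 21 to 50, chr1:59685026-59685055, plus strand: tgagCaaCgtggtCtgttCgtCCgCgggga
Ncl, bases 21 to 50, chr1:86359406-86359435, minus strand: gCCgaagtCaCgaggaCCCCCttCgtCgCC

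Every cytosine of these 4 windows was listed. The Nop58 window was the deepest, with 363 to 666 reads per cytosine, and was unconverted at 1.09%, 1.56% and 1.53% in replicates 1, 2 and 3. In the Nop56 window 6 of 583, 9 of 535 and 4 of 434 reads were unconverted, and in the Nhp2 window 14 of 930, 13 of 944 and 5 of 939. The Ncl window had at most 9 reads per cytosine, too few to test. None of the 42 testable cytosines in the first 50 bases of Nop56, Nop58, Nop10 and Nhp2 had an adjusted p below 0.05.

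Coverage per cytosine, a rough measure of transcript level per length, was high for this machinery. The mean coverage of the listed cytosines was scaled to a summed coverage of 100000000 per library. By this mean Fbl stood highest with 339, 385 and 400 in replicates 1, 2 and 3, a mean of 375 ± 32.0 (SD, n = 3), above 99.3% of the 13224 genes. Its partners in the box C/D particle were lower, Nop56 at 189 ± 14.7 and Nop58 at 94.5 ± 5.42. The median of all genes was 6.47.

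Among the box H/ACA proteins the scaled coverage was uneven. Nhp2, which binds the guide RNA, stood at 178 ± 8.46 and Gar1, which takes part in the turnover of the substrate RNA, at 70.8 ± 3.48. Dkc1, the enzyme itself, had 42.7 ± 2.23 and the small linker protein Nop10 had 36.2 ± 2.09. Ncl had 146 ± 6.45 and Npm1 30.6 ± 1.72 (SD, n = 3 for each). In the order Fbl, Nop56, Nhp2, Ncl, Nop58, Gar1, Dkc1, Nop10, Npm1, only Nop56 and Nhp2 had overlapping ranges over the 3 libraries. The order depends on the use of a mean. With the median over cytosines Nhp2 came first at 186 ± 12.1 and Fbl next at 166 ± 5.21, followed by Nop56 (92.3), Nop58 (49.4), Gar1 (36.8), Npm1 (29.7), Dkc1 (24.8), Ncl (18.0 ± 0.710) and Nop10 (13.7). Ncl thus went from 146 to 18.0, and Npm1 came before Dkc1.

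The place of Npm1 in this order rests on part of its mRNA. It was listed through 1 of its 3 RefSeq models, NM_001252261.1, and only between positions 901 and 1266. None of the 4 Nolc1 models was listed in any library. The other 8 genes were listed through 1 transcript each, including Dkc1 with 4 models in the annotation and Nhp2 with 2. Expression of Nolc1 was therefore not measured here, and the level of Npm1 was measured over that stretch only.

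**Figure D1:**
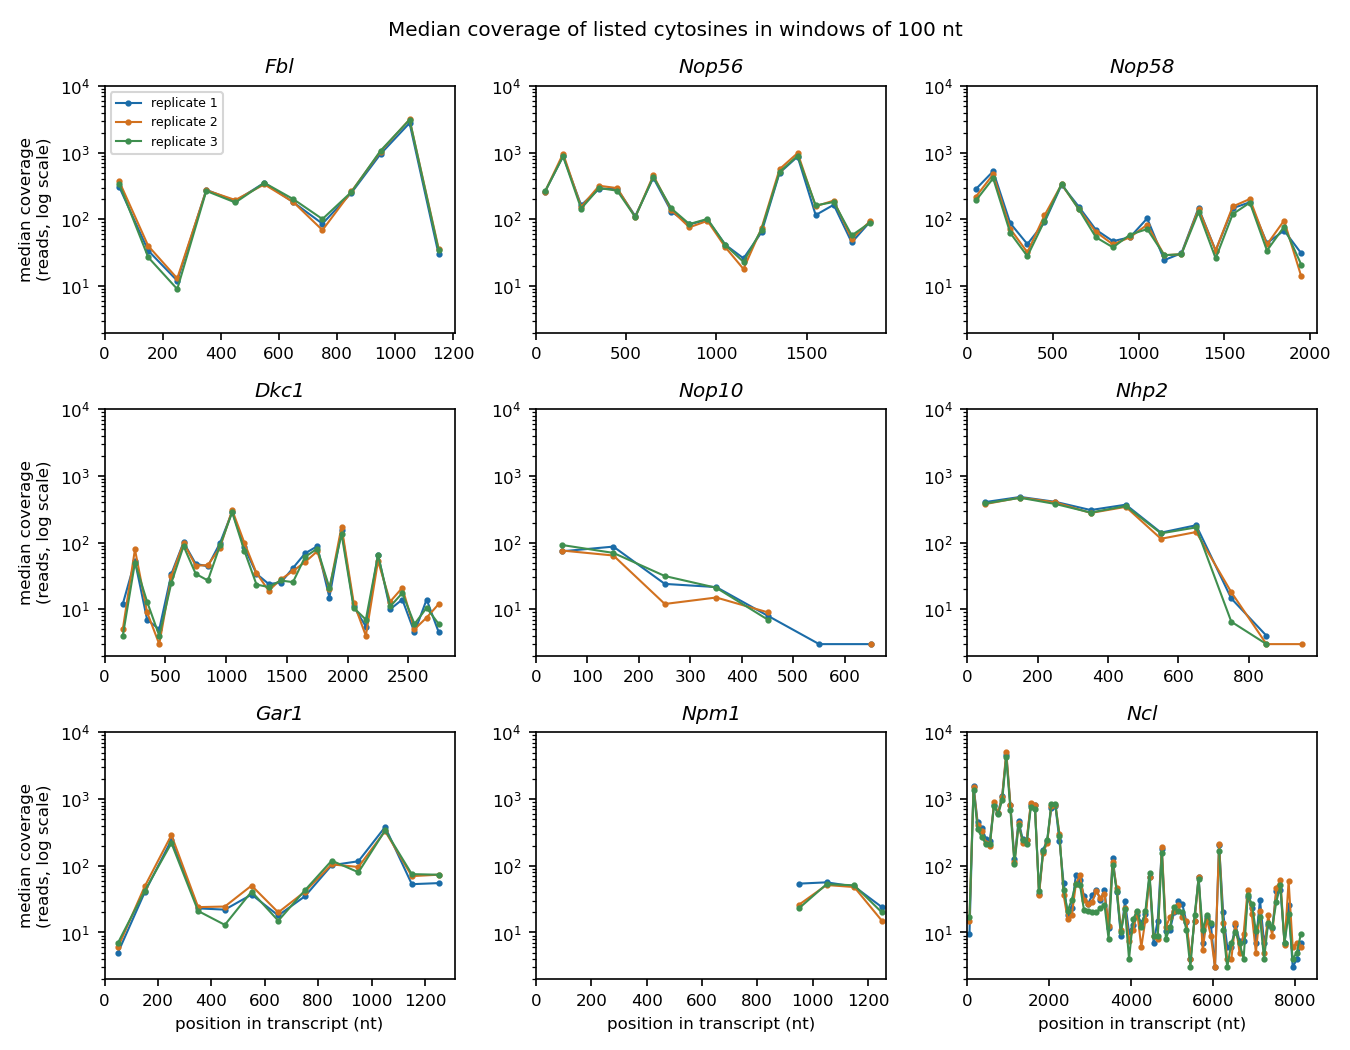
Median coverage of the listed cytosines in windows of 100 nt (log scale, reads) against transcript position for 9 genes, 1 line per replicate. The 3 libraries follow each other closely, Ncl falls beyond about position 2360 with isolated peaks after it, Fbl dips between 94 and 300, and Npm1 is listed only from 901 to 1266.

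Coverage was uneven along the transcripts in the same way in all 3 libraries, as the profiles by window show. Fbl (NM_007991.3) was listed from position 1 to 1159. Its cytosines at 1 to 93 had a median coverage of 311, 374 and 346 reads in replicates 1, 2 and 3. Those at 94 to 300 had 16.5, 21 and 21 reads, a median 17.7 ± 1.19 times lower (SD, n = 3), although cytosines below 3 reads are not listed at all. Between 1001 and 1100 the median rose to 2782.5, 3149.5 and 3119 reads, and this stretch held 45.6%, 48.3% and 48.0% of the gene's coverage.

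Ncl (NM_010880.3) was listed over a much longer stretch, from position 22 to 8171, at a coverage that fell along the transcript. A single change of level, placed by least squares on log2 coverage, came after position 2360. Up to there the median coverage was 364, 364 and 322.5 reads in replicates 1, 2 and 3. From 2363 on it was 16, 16 and 15 reads, lower by a factor of 22.3 ± 0.722 (SD, n = 3). The later stretch was not evenly low. The window from 4701 to 4800 had a median of 176, 189 and 156 reads and that from 6101 to 6200 of 205, 214 and 166, and the sharpest local fall of the gene lay there, from 300 to 350 reads at 4465 to 4477 to 6 to 18 reads at 4511 to 4527. The positions up to 2360 held 88.4%, 88.6% and 88.7% of the coverage of Ncl in 415 of its 1479 listed cytosines. Its deepest cytosine, at position 951, had 9412, 11923 and 9285 reads. The stretches of Fbl and the way of dividing Ncl were chosen after the profiles were seen.

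In several of the other genes the ends were thinly covered. Nhp2 (NM_026631.3) had a median of 335, 312 and 328 reads up to position 700 and of 5, 3 and 4 reads from there to 911. Nop10 (NM_025403.4) had a median of 17, 11.5 and 20 reads from position 301 to 625. Dkc1 (NM_001030307.2) had no listed cytosine before position 166, so its start could not be read.

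The unconverted share of each gene was then set against that of its whole library, over cytosines with at least 10 reads in all 3 libraries, called testable. The genes lay on both sides of the library-wide share. Fbl was lower in each library, at 1.38%, 1.34% and 1.27% in replicates 1, 2 and 3, and so was Nop56 at 1.42%, 1.39% and 1.31%. Nop58 was higher in each, at 1.74%, 1.66% and 1.61%. The 3 box C/D proteins thus did not share a level: Fbl ranked above 18.2% and Nop58 above 90.5% of the 6000 genes with at least 50 testable cytosines.

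Ncl was also higher in each library, at 1.69%, 1.64% and 1.53%, as were Gar1 (1.62% ± 0.0828), Nop10 (1.76% ± 0.189) and Npm1 (1.86% ± 0.335, SD, n = 3 for each). The Npm1 value rests on 68 cytosines and ranged from 1.62% to 2.24%, so its spread was the widest of the 9 genes. Dkc1 (1.43% ± 0.111) and Nhp2 (1.44% ± 0.0911) were above the library in 1 of 3 and below it in the others. The differences were small, at most 0.790 percentage points (Npm1, replicate 2), and with 3 libraries the smallest p of an exact sign-flip test is 0.25, so none was tested. Together the genes stood at 1.51% ± 0.0771 against 1.46% ± 0.0638 over all testable cytosines (SD, n = 3). Without the cytosines that passed the test described next, Ncl stood at 1.41% ± 0.0729, the genes together at 1.37% ± 0.0748 and Nop58 at 1.54% ± 0.0622. Leaving such cytosines out lowers a share by construction. The mean library-wide share of 1.46% still holds them, so it is not a like measure for these 3 values. With all testable cytosines kept, the median gene of this set was at 1.62%, and at 1.44% over all genes.

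**Figure D2:**
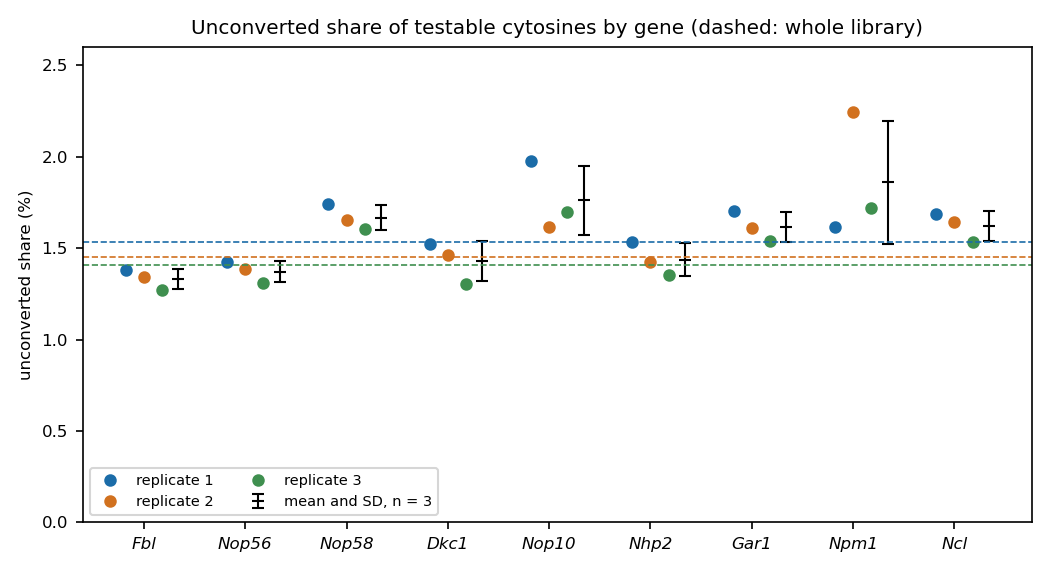
Unconverted share (%) of the testable cytosines of each gene, with 1 point per replicate, the mean and SD beside them (n = 3) and dashed lines for the whole libraries. Fbl and Nop56 lie below the line of their own library in all 3 replicates, and Nop58, Nop10, Gar1, Npm1 and Ncl above it.

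Single cytosines were tested next. The unconverted reads of a cytosine were compared with the library-wide share by a one-sided exact binomial test per library. Fisher's combination of the 3 p-values was adjusted with the Benjamini-Hochberg procedure over the 1639820 testable cytosines of all genes. Candidates had to pass an adjusted p of 0.05, to reach a mean share of 10% and to lie above the library-wide share in every replicate. Of 2937 testable cytosines in the 9 genes, 5 were candidates (0.17%, exact 95% interval 0.0553% to 0.397%), beside 0.0473% of all testable cytosines. They lay in Fbl, Ncl, Nop56 and Nop58, and none reached 20%. Of the 5, 4 had a mean coverage of 20 to 50 reads, where 731 cytosines of these genes were testable (0.547%, and 0.0698% over all genes at that coverage). At 10 to 20 and at 50 to 100 reads these genes had 0 candidates, beside 0.037% and 0.0258% over all genes. At 100 reads or more the values were 0.0709% and 0.0286%. The test takes each read as independent although PCR copies cannot be recognised, so that intervals and limits cover counting error only. The interval of 0.0553% to 0.397% also takes cytosines as independent, although 2 of the 5 candidates lie 9 nt apart in Fbl. Since the members were chosen with earlier results known, it is a description and not a test against the share of all cytosines.

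Fbl held 2 candidates, both in the thinly covered stretch. Position 151 was unconverted in 5 of 37, 5 of 40 and 4 of 26 reads in replicates 1, 2 and 3, or 13.8% ± 1.46 (SD, n = 3; adjusted p = 7.57e-06, exact binomial test). The 3 libraries were close to each other there, with a 95% Wilson interval of 5.91% to 28.0% in replicate 1. Over 10 alternatives the adjusted p ran from 2.95e-06 to 0.708, the latter with the weakest of the 3 p-values. Both ends came from exact binomial tests. Position 160, 9 nt further, was unconverted in 3 of 31, 6 of 39 and 2 of 22 reads, or 11.4% ± 3.48 (adjusted p = 0.000775, exact binomial test). Without replicate 2 the share at 160 was 9.38% with an adjusted p of 0.48 by the same exact test, and over its 10 alternatives the adjusted p ran from 0.000414 to 1.

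The stretch that holds these cytosines had a raised share. From 94 to 300 the listed cytosines of Fbl were unconverted at 4.28%, 4.58% and 3.53% in replicates 1, 2 and 3, while those from 1 to 93 stood at 1.19%, 1.17% and 1.20% and those beyond 300 at 1.36%, 1.31% and 1.25%. The stretch lay above both flanks in each library. It begins at a cytosine with an adjusted p below 0.05 and holds 4 such cytosines, 2 of them candidates, which raise its share by construction. The window from 201 to 300 held no such cytosine and stood at 6.49%, 6.36% and 2.22%, from a summed coverage of 154, 236 and 225 reads. Position 94, at the start of the stretch, was covered more deeply and was unconverted in 18 of 188, 15 of 180 and 15 of 197 reads, or 8.51% ± 0.992 (SD, n = 3; adjusted p = 5.98e-17, exact binomial test). Low coverage and a raised share thus fell together here, and whether the one bears on the other was not tested. Outside the stretch, positions 792 and 1118 of Fbl stood at 6.30% ± 0.905 and 5.44% ± 1.13.

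Ncl held the candidate with the most reads. Position 2263 was unconverted in 15 of 123, 17 of 156 and 16 of 130 reads in replicates 1, 2 and 3, or 11.8% ± 0.784 (SD, n = 3; adjusted p = 9.89e-23, exact binomial test). All 3 libraries lay between 10.9% and 12.3%. Of the 5 candidates it alone also passed when the weakest of the 3 p-values was used instead of their combination (adjusted p = 5.38e-06, exact binomial test). Its adjusted p ran from 6.17e-23 to 5.38e-06 over 10 alternatives. The cytosine directly downstream, 2264, had 7.40% ± 0.213, and 2272 had 8.79% ± 1.22.

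These 3 cytosines belonged to a longer group just before the change in coverage, bounded by called cytosines at most 50 nt apart. Of the 16 testable cytosines of Ncl between 2162 and 2302, 11 had an adjusted p below 0.05, among them 2179 (6.03% ± 2.36), 2212 (5.35% ± 1.85) and 2230 (6.37% ± 0.917). Together these 16 were unconverted at 4.75%, 3.68% and 3.98% in replicates 1, 2 and 3. Because called cytosines set the bounds of this stretch, the count and the share are raised by construction and are descriptions only. The median coverage there was 238.5, 307.5 and 280.5 reads, with the lowest values, 111 to 136 reads, at 2264. Coverage fell as the share rose here too. The window from 2101 to 2200 had a median of 794, 828 and 836 reads and a share of 1.97% ± 0.202, and that from 2201 to 2300 had 234, 299 and 276 reads and 4.89% ± 0.807 (SD, n = 3); whether the one bears on the other was not tested. From position 2363 on the share was 1.28%, 1.47% and 1.25%, and 1 of 585 testable cytosines passed, at 7826 (7.17% ± 4.43), which lost its call without replicate 2 (5.02%, adjusted p = 1, exact binomial test; 0.0131 to 1 over its alternatives).

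**Figure D3:**
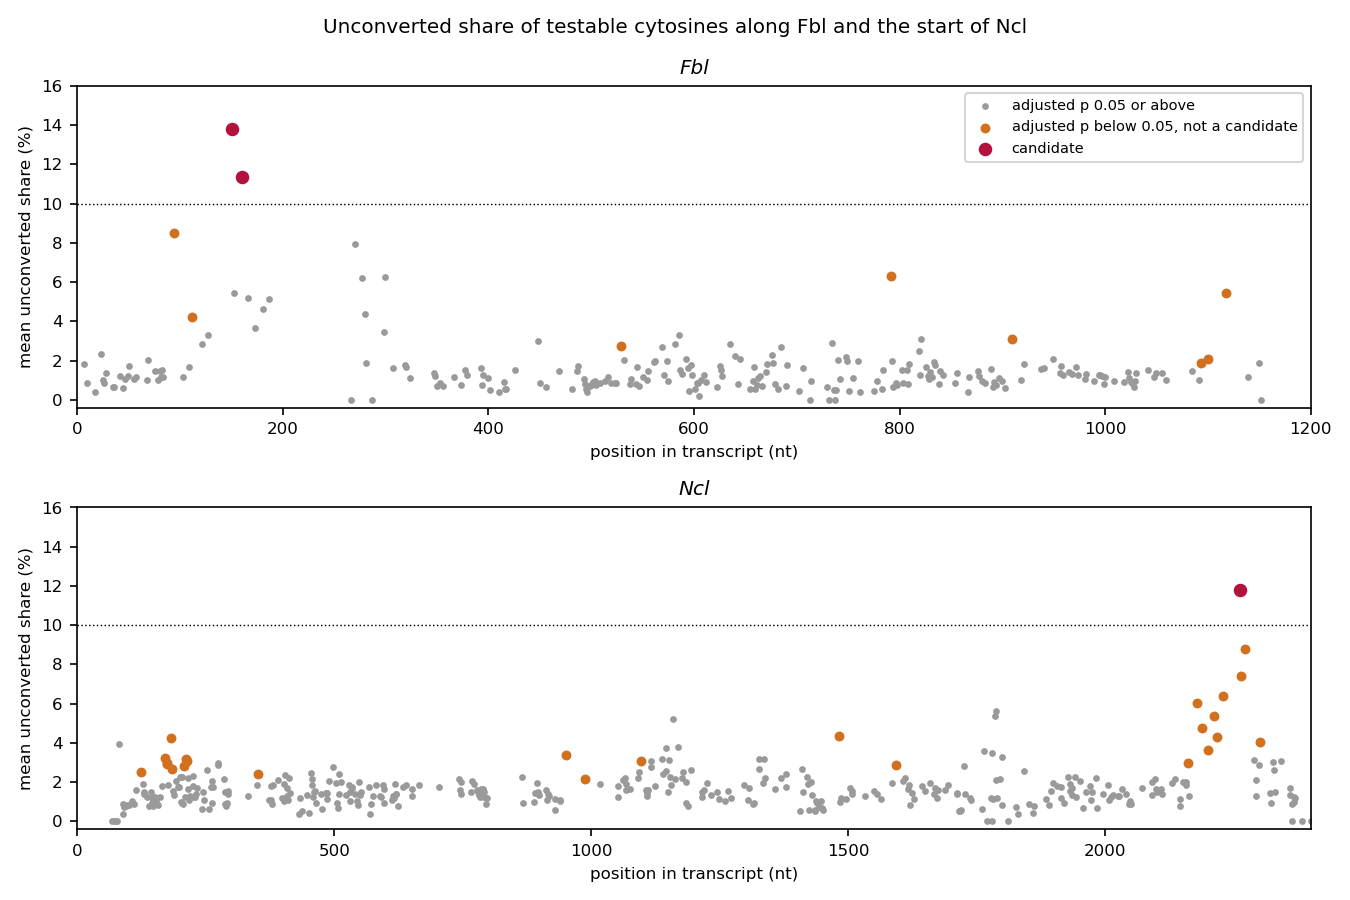
Mean unconverted share (%) over 3 libraries of each testable cytosine against position in Fbl and in the start of Ncl; the dotted line marks 10%. In Fbl 4 of the 10 cytosines with an adjusted p below 0.05 lie between 94 and 160, and in Ncl 11 of 27 lie between 2162 and 2302.

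Nop56 and Nop58, the paired scaffold proteins of the box C/D particle, each held 1 weak candidate. Position 211 of Nop56 (NM_024193.2) was unconverted in 3 of 33, 4 of 28 and 2 of 24 reads, or 10.6% ± 3.24 (SD, n = 3; adjusted p = 0.0143, exact binomial test). Position 1220 of Nop58 (NM_018868.2) was unconverted in 3 of 32, 4 of 25 and 1 of 16 reads, or 10.5% ± 4.98 (adjusted p = 0.0287, exact binomial test). Both values rest on few reads. The call was lost without replicate 1 (adjusted p = 0.0922 for Nop56 and 0.184 for Nop58, exact binomial test) and without replicate 2 (0.565 and 1). Over the alternatives the adjusted p ran from 0.00914 to 1 for Nop56 and from 0.0287 to 1 for Nop58, with both ends from exact binomial tests.

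Of the 5 candidates, 4 were directly followed by another listed cytosine: 151 of Fbl, 2263 of Ncl, 211 of Nop56 and 1220 of Nop58. The downstream cytosines stood at 5.43% ± 0.942 in Fbl, 6.59% ± 6.01 in Nop56 and 7.89% ± 7.0 in Nop58 (SD, n = 3), none with an adjusted p below 0.05, beside the 2264 of Ncl. Of all 775 candidates 28.4% were followed by a listed cytosine, and of all testable cytosines 26.9%. With 5 candidates, and with pairs that share their reads, this is a description only.

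More cytosines passed at lower shares. Without a level minimum 61 of the 2937 had an adjusted p below 0.05, or 2.08% beside 0.499% of all testable cytosines. At an unadjusted combined p below 0.05 the count was 221, or 7.52% beside 3.32% of all. These mRNAs were also read more deeply. The median mean coverage was 90.7 reads in these genes and 30.3 in all, and the part of depth in these counts was not tested. By mean coverage, 3.76% of the cytosines of these genes and 2.41% of all passed at 100 reads or more, and 0.218% and 0.441% at 50 to 100 reads. At 20 to 50 reads it was 0.958% and 0.155%, and at 10 to 20 reads 0% and 0.0501%. The group at 100 reads or more held 53 of the 61 and has no upper limit, so depth can still differ within it. The 61 had a median share of 4.04%, and 46 of them had an unadjusted p below 0.05 in each of the 3 libraries. Ncl held 27 (2.74% of its testable cytosines), Fbl 10 (4.0%), Nop58 9 (2.63%), Nop56 7 (1.6%) and Nhp2 4 (2.03%). Gar1 held 2 (0.905%), Nop10 1 (1.15%) and Dkc1 1 (0.286%). With the background of the own transcript Ncl had 25, Fbl 10, Nop56 8 and Nop58 3. With the weakest of the 3 p-values these 4 genes had 9, 3, 1 and 0.

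The deepest of them was position 951 of Ncl, unconverted in 314 of 9412, 434 of 11923 and 296 of 9285 reads in replicates 1, 2 and 3. Its 3.39% ± 0.230 (SD, n = 3) was more than the library-wide share in all 3 (adjusted p = 6.85e-124, exact binomial test). With a beta-binomial background, which allows extra spread between cytosines, the adjusted p was 0.0225, the highest over its 10 alternatives. The most deeply read cytosine of Fbl, position 1085 with 94 of 5869, 102 of 6988 and 94 of 7082 reads unconverted, was at 1.46% ± 0.137, the level of the libraries. It did not pass (adjusted p = 1, exact binomial test). The deepest cytosines of Nop56 (1465, 1.53% ± 0.274), Nop58 (149, 1.37% ± 0.0749), Dkc1 (1006, 1.10% ± 0.257), Gar1 (1027, 0.854% ± 0.20) and Npm1 (1062, 1.96% ± 0.307) did not pass either. Near the start of Ncl, 9 of the 35 testable cytosines from 123 to 213 passed, while the stretch as a whole stood at 1.64% ± 0.108. Its bounds too are called cytosines, which raises that count by construction.

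Of the 61, 20 had a mean share of at least 5%, or 0.681% of the 2937 beside 0.22% of all testable cytosines. They lay in 6 genes: 7 in Ncl, 5 in Fbl, 4 in Nop56, 2 in Nop58, and 1 each in Dkc1 and Gar1. When each library was left out in turn, 10 of the 20 kept an adjusted p below 0.05 in all 3 fits, 6 in Ncl and 4 in Fbl. Those of Ncl were 2179, 2212, 2230, 2263, 2264 and 2272, and those of Fbl were 94, 151, 792 and 1118. With the weakest of the 3 p-values 7 of the 20 passed, all among these 10, while Ncl 2179 (adjusted p = 1), Ncl 2264 (0.542) and Fbl 151 (0.708) did not, by the same exact binomial test. Over all alternatives the adjusted p ran from 6.25e-17 to 1 for Ncl 2179 and from 1.46e-07 to 0.542 for Ncl 2264, with both ends from exact binomial tests. In Nop56 the neighbours 773 and 778 were at 5.06% ± 1.67 and 5.62% ± 1.25, and 1684 at 5.13% ± 2.37, but none of these 3 held in every fit. In Nop58 position 1295 was at 8.39% ± 2.07 and lost its call without replicate 2 (adjusted p = 0.107, exact binomial test; 0.000342 to 1 over its alternatives).

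**Figure D4:**
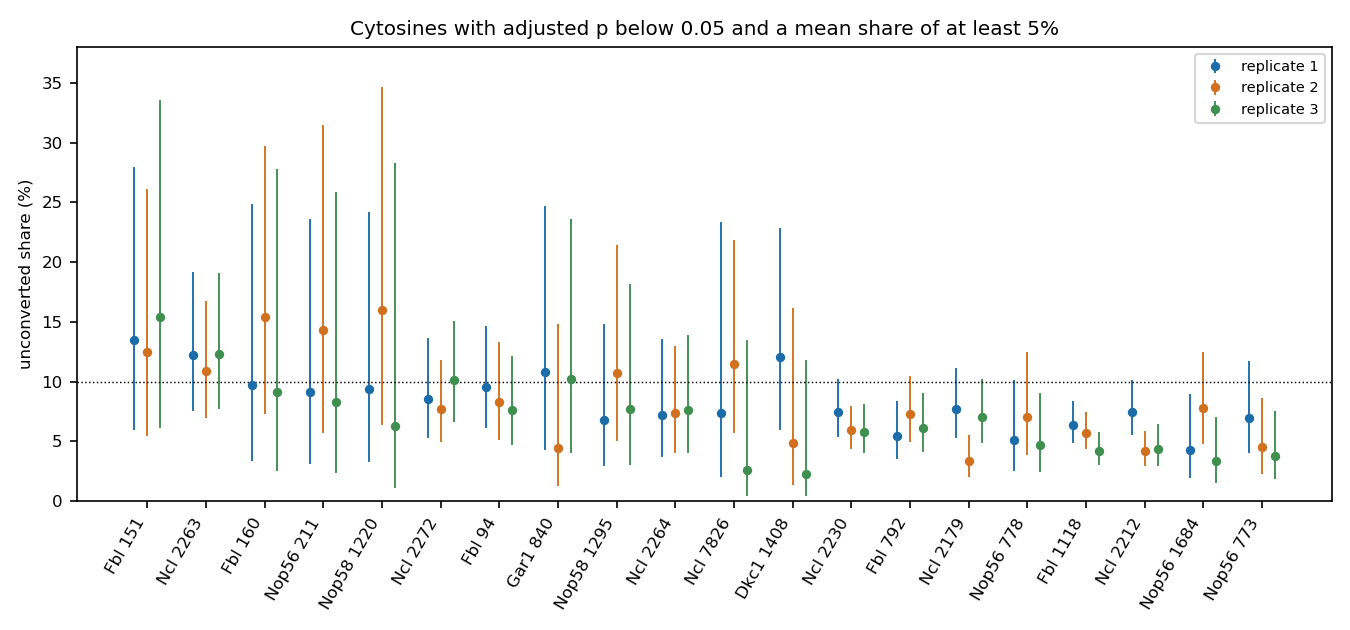
Unconverted share (%) in each replicate, with 95% Wilson intervals, of the 20 cytosines with an adjusted p below 0.05 and a mean share of at least 5%, ordered by mean share; the dotted line marks 10%. The replicates are close at Ncl 2263 and Fbl 151 and spread widely at Nop58 1220, Dkc1 1408 and Ncl 7826.

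The box H/ACA proteins had no candidate. Dkc1 had 1 cytosine with an adjusted p below 0.05 among 350, position 1408, with 7 of 58, 2 of 41 and 1 of 44 reads unconverted. Its 6.41% ± 5.07 (SD, n = 3) came mainly from replicate 1, and without that replicate it was 3.58% (adjusted p = 1, exact binomial test; 0.021 to 1 over its alternatives). The highest share in Dkc1, 7.65% ± 2.50 at position 2385, came from 3 of 43 reads and did not pass. Gar1 had 8.50% ± 3.53 at position 840, from 4 of 37, 2 of 45 and 4 of 39 reads (adjusted p = 0.021, exact binomial test). It became a candidate without replicate 2 (10.5%, adjusted p = 0.0286) and lost its call without replicate 1 or 3 (0.374 and 0.406, exact binomial test; 0.0134 to 1 over its alternatives).

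Nhp2 and Nop10 carried values below 5% that passed the test. Position 176 of Nhp2 was unconverted in 21 of 604, 27 of 614 and 26 of 605 reads, or 4.06% ± 0.505 (SD, n = 3; adjusted p = 3.12e-10, exact binomial test). The 4 called cytosines of Nhp2, which included position 180 with 3.98% ± 0.690, each kept an adjusted p below 0.05 when any 1 library was left out, while 2 of the 4 passed with the beta-binomial background and 0 with the weakest of the 3 p-values. Position 73 of Nop10, its most deeply read cytosine, was unconverted in 21 of 375, 20 of 448 and 15 of 385 reads, or 4.65% ± 0.868 (adjusted p = 2.72e-09, exact binomial test), and also held in all 3 fits. With the weakest of the 3 p-values it did not pass (adjusted p = 0.706, exact binomial test; 1.69e-09 to 0.706 over its alternatives). The highest share in Nop10, 6.90% ± 2.71 at position 297, did not pass (adjusted p = 0.126, exact binomial test).

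Npm1 had 0 called cytosines among 68 testable ones in the binomial test and 0 in the beta-binomial test, with 7 at an unadjusted combined p below 0.05. Its highest share was 7.69% ± 3.83 at position 1234, from 4 of 55 reads. Candidates were also 0 in Dkc1, Nop10, Nhp2 and Gar1 under both tests, with 7, 4, 10 and 24 cytosines at an unadjusted combined p below 0.05. For a cytosine with 0 unconverted reads in a single library, the largest share allowed was taken as 3 counts over the median coverage of testable cytosines. This was 6.21% in Npm1, 10.7% in Nop10, 6.32% in Dkc1, 4.79% in Gar1 and 0.941% in Nhp2. In Nop10, therefore, a site at the candidate level could have gone unseen in a single library. The limit does not apply to cytosines with unconverted reads. Those with 0 in all 3 libraries were 4 of 197 in Nhp2 and 33 of 221 in Gar1.

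The rest of the pathway was covered by a list of 113 other ribosome biogenesis genes, of which 111 had listed and 109 testable cytosines. They held 6 candidates among 40129 testable cytosines, 0.015% (exact 95% interval 0.00549% to 0.0325%), and 189 cytosines with an adjusted p below 0.05 (0.471%), beside 0.0473% and 0.499% of all. The interval again takes cytosines as independent. The gene shares of this list had a median of 1.47%. Utp18, a protein of the small-subunit processome, had adjacent candidates at 164 and 165 with 11.2% ± 1.59 and 10.5% ± 0.999 (SD, n = 3). Heatr1, of the same complex, had 10.5% ± 6.85 at 774, from 4 of 39, 1 of 27 and 4 of 23 reads. At 2637 it had 11.5% ± 9.71, from 4 of 52, 1 of 23 and 7 of 31. The helicase Ddx54 had 16.4% ± 10.8 at 497, from 6 of 37, 2 of 35 and 9 of 33 reads. The rRNA cytosine methyltransferase Nop2 had 10.3% ± 2.10 at 471, from 4 of 32, 2 of 24 and 3 of 30. The Ddx54 and both Heatr1 cytosines had an unadjusted exact binomial p below 0.05 in 2 libraries, and those of Utp18 and Nop2 in all 3.

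The 5 of these genes with the largest summed coverage, Mybbp1a, Mdn1, Ddx21, Wdr43 and Snu13, had no candidate in the binomial test. Mybbp1a, a nucleolar protein, had 12 cytosines with an adjusted p below 0.05 among 1047, and its gene share was 1.42% ± 0.0542. Snu13, which binds the box C/D RNA with Nop56, Nop58 and Fbl, had a scaled coverage of 185 ± 2.27, similar to Nop56, and 1 such cytosine among 247.

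Agreement between the libraries over single cytosines rose with depth. Over the 2937 testable cytosines of the 9 genes Pearson's r of the shares was 0.154 to 0.238 for the 3 pairs of libraries. Over the 1344 with at least 100 reads in each library it was 0.519 to 0.545. Cytosines that lie together share reads and are not independent replicates, so these values are descriptions.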

How the data were processed

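Per the submitters' processing notes, the authors used BSMAP and build mm9 (version, counting step and annotation: not given in the sources used here). In the deposited tables each listed cytosine of a RefSeq mRNA has a coverage, a raw read count of at least 3, and an unconverted share, a fraction. The product was whole within 1e-06 for every cytosine and was taken as unconverted reads. Transcripts were matched to symbols by accession (14932 of 15021; GRCm38.p6, names only). Background was the library-wide share. Exact binomial tests, Fisher's combination and Benjamini-Hochberg adjustment ran over all testable cytosines (Python 3.11.15, SciPy 1.17.1), and were tested on simulated data. The simulated reads were drawn from the binomial model that the test assumes. They cannot show how the test behaves with extra spread between cytosines. Gene lists and members were chosen with earlier results of these data known. Named were all 10 genes with each candidate, each cytosine with an adjusted p below 0.05 and at least 5%, and the highest and the deepest testable cytosine per gene; of the other genes, up to 10 with the highest candidate and the 5 with the largest coverage. Other positions and stretches were chosen after their values were seen. Ncl was divided by a least-squares change of level, chosen after a rule for the sharpest local fall had placed the division elsewhere; both are reported. Alternatives changed the coverage and level minimums, the combination of p-values, the background and the libraries used. The background was changed to that of the own transcript, or to a beta-binomial one in place of the exact test. A changed level minimum leaves the p-value as it was. Low-coverage cytosines were left out of tests because a count of 0 there allows a high share.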

Additional observations from a re-analysis of the deposited data

How the results depend on the processing

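The 5 candidates of the nucleolar genes became 0 at a level minimum of 20%, 20 at 5%, 1 with the highest of the 3 p-values and 3 with a beta-binomial background, and 3 to 5 when 1 library was left out. Fbl 151 and Ncl 2263 were kept without any 1 library, and Fbl 160, Nop56 211 and Nop58 1220 were not. Their 61 cytosines with an adjusted p below 0.05 became 13 with the highest p-value and 28 with the beta-binomial background, and 41 to 47 without 1 library; 30 of the 61 passed in each of those 3 fits. The other ribosome biogenesis genes went from 6 candidates to 0 at 20%, 81 at 5% and 0 with the highest p-value, and had 9 to 15 without 1 library. All genes went from 775 to 489 at a coverage minimum of 20, 86 at a level of 20%, 3322 at 5% and 109 with the highest p-value, and had 754 to 825 without 1 library. The share of the nucleolar genes together was 1.37% without the called cytosines, which lowers it by construction, and 1.47% to 1.55% without 1 library. Without its called cytosines Ncl went from 1.62% to 1.41%. The library-wide mean of 1.46% still holds such cytosines and is not a like measure for these lowered values. With the median over cytosines in place of the mean, Fbl coverage fell below that of Nhp2, and that of Ncl went from 146 to 18.0. Of 317 repeats for named cytosines, 41 lost a call. The other 276 include cytosines that had no call to lose and settings that leave the p-value unchanged, so they do not measure robustness. Nop58 1220 also fell out of the test at a coverage minimum of 20, which is not counted among the 41. Coverage minimums of 5 and 20 and the background of the transcript left 5, 4 and 4 candidates in the nucleolar genes. The cause of the other changes was not tested. No paired analysis was possible because there is 1 group. Depth limits the thinly read stretches most: where fewer than 10 reads cover a cytosine, as in much of Ncl beyond 2360, nothing was tested.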
